A study of Mus musculus with 6 samples.

Results

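Sodium channels, pacemaker channels and gap junction channels carry the electrical signal of the heart, and 7 of their genes are described here out of 54532 genes measured. They were chosen by name: the sodium channel genes Scn4b and Scn4a, the pacemaker channel genes Hcn2 and Hcn4, and the connexin genes Gja1, Gja5 and Gjc1. Polyadenylated RNA of hearts from mice aged 4 days was sequenced in 3 Wtapflox/flox mice, called Wtap-flox, and 3 mice labelled Wtap-CKO, the conditional knockout of Wtap. Wtap encodes a regulatory subunit of the methyltransferase that places N6-methyladenosine (m6A) in messenger RNA, and the series asks what WTAP does in heart development. The flox allele is the same gene with recombination sites and no deletion by itself. Neither the labels nor the design text names the Cre driver, the deleted exons, the strain or the sex of the mice. The submitters call the 3 hearts of a group independent biological replicates.

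Voltage-gated sodium channels open at the start of the action potential, and the inward current they pass sets how fast the signal spreads through heart muscle. Each has a pore-forming alpha subunit, such as Scn4a in skeletal muscle, and small beta subunits such as Scn4b that adjust its gating. Hcn channels open when the membrane becomes more negative and are tuned by cyclic AMP. Hcn4 is known as the main pacemaker channel of the sinoatrial node, and Hcn2 is found more widely in the heart. Connexins assemble into gap junctions that pass current from cell to cell: connexin 43 (Gja1) in working muscle, connexin 40 (Gja5) in atria, the fast conduction system and arterial endothelium, and connexin 45 (Gjc1) in the early heart and the nodes.

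Of the 7 genes 5 were abundant enough to test, and 1 of these changed between the groups, against 16.6% of all 12568 genes tested. Hcn2 fell in the hearts labelled Wtap-CKO, and Hcn4 stood higher there without passing the test. Gja1, Gja5 and Gjc1 did not pass. Scn4a had a low level and Scn4b was near the limit of detection in both groups. Values are FPKM, which is reads scaled by the length of the gene and by a size factor of the library rather than its read total.

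The reads recovered from the FPKM values came to 15649028 in the smallest library and 18045599 in the largest, and a read on a gene of 1 kb was worth 0.0564 to 0.0647 FPKM. The targeted gene, Wtap, stood at 7.77, 8.74 and 10.9 FPKM in Wtap-flox and 9.32, 7.75 and 9.46 FPKM in Wtap-CKO. Its log2 fold change was -0.04 (95% interval -0.37 to 0.29, adjusted p = 0.893, limma), so the whole-gene value does not check the labels, and each direction given here rests on them: Wtap-CKO stands throughout for the libraries labelled so. Among the 12568 genes that averaged 1 FPKM or more, 2086 (16.6%) changed at an adjusted p below 0.05, with 9.91% higher and 6.69% lower in Wtap-CKO. TPM scaling turned this split, to 799 higher and 1600 lower. Heart muscle markers were abundant: 8 cardiomyocyte genes, led by Actc1, summed to between 16618 and 20369 FPKM in Wtap-flox and between 17808 and 21663 FPKM in Wtap-CKO.

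The sequences upstream of Hcn2 and Hcn4 are shown because these members lay on opposite sides of 0. Each line gives the 250 bases before the gene's start on the plus strand (RefSeq, GRCm38.p6), 5′ to 3′, at chr10:79716384-79716633 for Hcn2 and chr9:58822699-58822948 for Hcn4. Capitals mark a T-box motif.
Hcn2 upstream: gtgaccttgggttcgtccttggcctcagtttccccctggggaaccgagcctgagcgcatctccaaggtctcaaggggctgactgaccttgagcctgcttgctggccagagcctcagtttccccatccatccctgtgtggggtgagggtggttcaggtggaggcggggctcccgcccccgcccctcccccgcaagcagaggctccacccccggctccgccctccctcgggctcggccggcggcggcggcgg
Hcn4 upstream: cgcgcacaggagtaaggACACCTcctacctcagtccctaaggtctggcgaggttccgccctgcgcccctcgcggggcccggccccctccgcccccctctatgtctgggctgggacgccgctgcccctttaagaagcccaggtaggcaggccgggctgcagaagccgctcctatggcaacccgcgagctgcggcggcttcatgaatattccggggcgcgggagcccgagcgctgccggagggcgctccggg
The motifs searched, on both strands of the window from 250 bases before to 50 bases after the start, were AGGTGT for T-box factors, AGATAA for GATA factors, AAGTG for NKX2-5, TATAAA for the TATA box, and the MEF2 consensus by its name. Of 32851 RefSeq promoters, 13.7% held the T-box motif, 11.2% the GATA motif, 46.4% the NKX2-5 motif, 13.6% the TATA box and 3.19% the MEF2 consensus. RefSeq promoters were matched for 6 of the 7 members. The start used here is that of RefSeq and can differ from the gene spans given below. The span of Hcn4 begins at 58823412, after the stretch shown. The window of Gja5, from 97032152, lies inside its span, which begins at 96904693, and the Scn4a window also lies inside its span. Hcn4 held the T-box motif, beginning at position -233 from the start, Gja1 held a GATA motif at -135 and Gja5 an NKX2-5 motif at -62. None of the 5 motifs was in the windows of Hcn2, Scn4a or Scn4b. Bases G and C made up 72.3% of the Hcn2 window and 71.7% of the Hcn4 window, against a median of 52.7% over all promoters.

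The writer complex acts at a short consensus in RNA, of which GGACT (written as DNA) is a frequent form, so the members' transcripts were searched for it. No methylation was measured in these samples, and a match is only a match of letters. For each of the 5 members that were tested, the site nearest the last coding base of the canonical transcript (GENCODE M39) is shown with its flanks, with the motif in capitals.
Hcn2: tcgacccactGGACTctgcgcgctc
Hcn4: aggaggtctgGGACTcctggagcac
Gja1: cccaccaggtGGACTgcttcctctc
Gja5: ggctgtggctGGACTgtctctgttt
Gjc1: caaactcaggGGACTctgaaggtgg
The Hcn2 site lay in the coding sequence, 33 bases before its last base. The sites of Gja5, Gja1 and Hcn4 were also coding, 428, 558 and 743 bases before the last coding base, and that of Gjc1 was in the 3′ UTR, 138 bases after it. Hcn2 held 6 sites, all in its coding sequence, or 1.69 per kb. Hcn4 held 6 (0.898 per kb), Gjc1 6 (1.06 per kb), Gja1 3 (0.638 per kb) and Gja5 2 (0.639 per kb). Scn4b held 8 (1.57 per kb) and Scn4a 5 (0.758 per kb). Over 21593 canonical coding transcripts the median was 1.01 per kb with quartiles of 0.579 and 1.48, and 88.9% held at least 1 site. Hcn2 and Scn4b therefore lay above the upper quartile and the other members between the quartiles.

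The 7 genes spanned a wide range of levels, in an order that rests on the gene lengths of the authors' table. Averaged over the 6 hearts, Gja1 stood at 72.8 FPKM, Gjc1 at 16.4, Hcn2 at 6.05, Gja5 at 4.35, Hcn4 at 3.05, Scn4a at 0.641 and Scn4b at 0.0422 FPKM. In Wtap-flox the 3 values of each gene lay apart from those of its neighbours in this order. In Wtap-CKO those of Hcn2, Gja5 and Hcn4 overlapped, with Hcn2 between 4.23 and 4.40 FPKM, Gja5 between 3.79 and 5.04 and Hcn4 between 3.09 and 4.65. The gene lengths in the authors' table are not those of a single transcript: Gja1 is listed at 10257 bases, where its canonical transcript has 4700, which lowers its FPKM against other genes but not between groups.

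**Figure D1:**
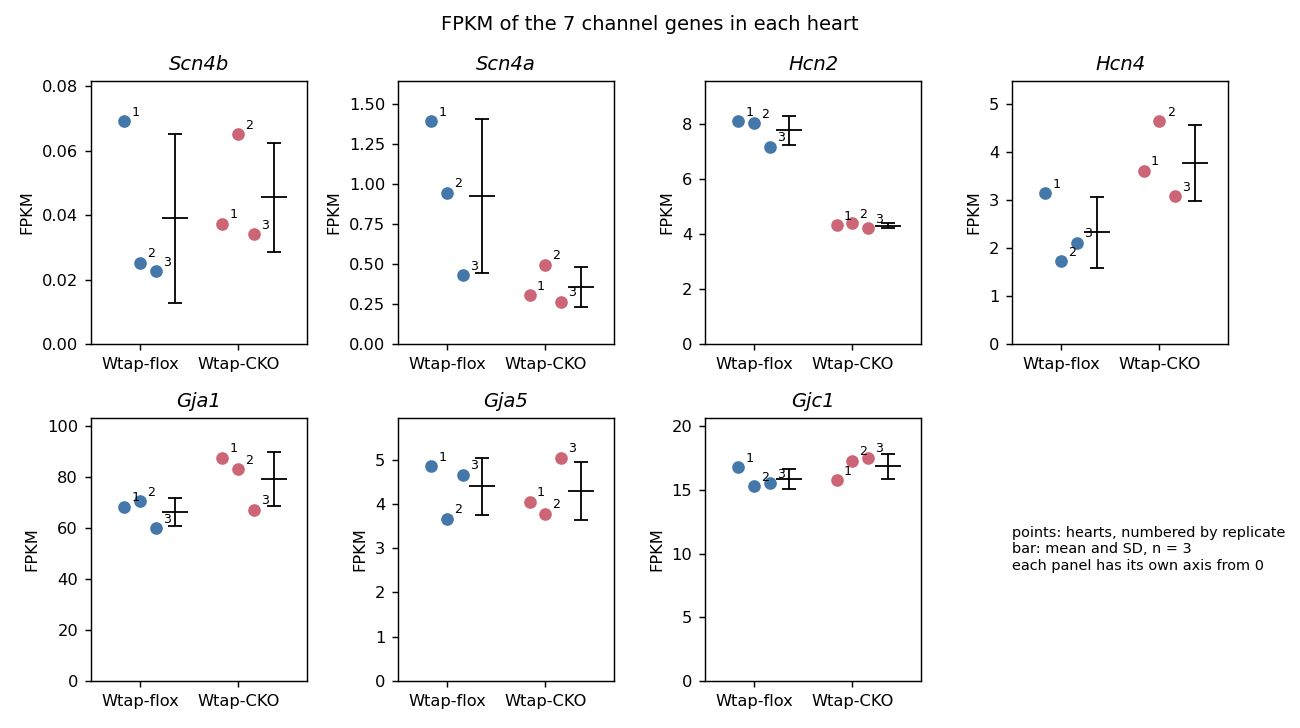
FPKM of each of the 7 genes (vertical axes, each from 0) in the 3 Wtap-flox and 3 Wtap-CKO hearts, with points numbered by replicate and bars for the mean and SD. The groups lie apart for Hcn2 only, at 7.19 to 8.12 FPKM against 4.23 to 4.40 FPKM.

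The sodium channel beta subunit Scn4b (ENSMUSG00000046480, chromosome 9, 45138395 to 45154152, plus strand; all spans are on GRCm38) was barely detected. It had 6, 2 and 2 reads in the Wtap-flox hearts and 3, 5 and 3 in the Wtap-CKO hearts, 21 in all, or 0.0227 to 0.0691 FPKM. These counts lie around the floor of 3 reads per library used here, so no fold change is given, and a difference between the groups was not detectable at this depth.

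The alpha subunit gene Scn4a (ENSMUSG00000001027, chromosome 11, 106318592 to 106353288, minus strand) is best known from skeletal muscle. It stood at 1.39, 0.947 and 0.433 FPKM in Wtap-flox and 0.308, 0.497 and 0.266 FPKM in Wtap-CKO. The highest values were those of Wtap-flox 1 and 2, while Wtap-flox 3 lay below Wtap-CKO 2, so the groups overlapped. Reads behind these values numbered 171, 106 and 54 against 35, 54 and 33. The mean was 0.924 ± 0.481 FPKM against 0.357 ± 0.123 FPKM (n = 3, SD; two-sided p = 0.2 by exact permutation), and the gene did not reach the mean of 1 FPKM required for the test. In the fit without that requirement, in which 4.43% of 27201 genes changed (2.66% higher and 1.78% lower), the log2 fold change was -0.48 (95% interval -0.95 to -0.01, adjusted p = 0.256, limma). It was -0.30 without Wtap-flox 1, -1.08 with a pseudocount of 0.1 and -1.27 by limma-voom, and missed the threshold in each.

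Of 20 skeletal muscle markers, led by Mylpf, none reached a mean of 1 FPKM, and Myod1, Myf6, Pax7 and Myh4 were at 0 in all 6 libraries. Their summed level was 2.56 to 3.57 FPKM in Wtap-flox and 2.74 to 3.63 FPKM in Wtap-CKO, while the level of Scn4a had its highest values in Wtap-flox 1 and 2. The part of muscle other than heart in these values was not tested.

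Of 10 other sodium channel subunits examined, 1 reached a mean of 1 FPKM. This was Scn7a, a sodium-sensing relative of the channels, at 1.30 ± 0.286 FPKM in Wtap-flox and 0.983 ± 0.182 FPKM in Wtap-CKO (log2 fold change -0.21, 95% interval -0.55 to 0.13, adjusted p = 0.371, limma), against a median of 0.00 over all tested genes. Scn10a, an alpha subunit best known from sensory neurons and named after its values were seen, stood at 1.39, 1.07 and 1.15 FPKM in Wtap-flox and 0.365, 0.374 and 0.484 FPKM in Wtap-CKO. Its values did not overlap between groups. Its mean was below 1 FPKM, and in the fit without that requirement, the same as for Scn4a, it fell by 0.65 on the log2 scale (95% interval -0.91 to -0.38, adjusted p = 0.0277, limma). The ratio of its mean FPKM was 0.338, and the log2(FPKM + 1) scale understates a change at this level. The call was lost without any 1 of the 6 hearts (adjusted p of 0.0518 to 0.101) and with the replicate block, although nothing pairs the hearts (0.116). The call held with either pseudocount, with upper-quartile, quantile and TPM scaling, and without trend or without robust moderation. It also held by limma-voom (-1.55, adjusted p = 0.000208).

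Among 12 genes whose products anchor or adjust sodium channels, 10 were tested, and 1 rose and 2 fell (median -0.09). Over all tested genes 9.91% were higher and 6.69% lower. Cav3, the caveolin of muscle, rose from 106 ± 16.8 to 224 ± 25.3 FPKM (1.08, adjusted p = 0.00422, limma). Fgf13, an intracellular factor that binds the channel, fell by 1.02 on the log2 scale, from 18.2 ± 2.66 to 8.52 ± 1.30 FPKM (adjusted p = 0.00328). Gpd1l, a regulator of the cardiac channel, fell by 0.57 (adjusted p = 0.0373, limma). Its adjusted p rose to as much as 0.105 and missed the threshold without any 1 of the 3 Wtap-flox hearts, without Wtap-CKO 2 and with a lower or no filter.

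The pacemaker channel gene Hcn2 (ENSMUSG00000020331, chromosome 10, 79716634 to 79736108, plus strand) stood at 8.12, 8.03 and 7.19 FPKM in Wtap-flox. The Wtap-CKO values were 4.32, 4.40 and 4.23 FPKM. The 3 Wtap-CKO hearts lay close together and below the lowest Wtap-flox heart. The mean went from 7.78 ± 0.513 to 4.31 ± 0.0863 FPKM (SD, n = 3), a ratio of 0.555. On the log2(FPKM + 1) scale, which understates the change of genes at this level, Hcn2 fell by 0.72 (SE 0.11, 95% interval -0.97 to -0.48, adjusted p = 0.00332, limma). The reads behind these values numbered 407 to 452 in Wtap-flox and 217 to 238 in Wtap-CKO. It was the 1 of 5 tested members that changed, against 6.69% of all tested genes lower at this threshold (1600 genes lower with TPM scaling, where Hcn2 fell by 0.86). It was also the 1 tested member whose groups did not overlap, against 17.3% of all tested genes lower without overlap and 19.8% higher. Its adjusted p lay between 0.00155 and 0.0196 over the 18 alternatives.

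Hcn4 (ENSMUSG00000032338, chromosome 9, 58823412 to 58863175, plus strand) stood at 3.14, 1.73 and 2.11 FPKM in Wtap-flox. The Wtap-CKO values were 3.61, 4.65 and 3.09 FPKM. Wtap-CKO 3 lay just below Wtap-flox 1, and this pair made the groups overlap. The mean was 2.33 ± 0.731 FPKM against 3.78 ± 0.793 FPKM (SD, n = 3), with a log2 fold change of 0.53 (SE 0.18, 95% interval 0.12 to 0.95), and the adjusted p of 0.0812 (limma) missed the threshold. Hcn4 passed without Wtap-flox 1 (0.70, adjusted p = 0.0405) and by limma-voom on the recovered reads (0.71, adjusted p = 0.0367), and its adjusted p ranged from 0.0367 to 0.243 over 17 alternatives.

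The share of Hcn4 in the sum of Hcn2 and Hcn4 was chosen after both genes were seen to lie on opposite sides of 0, so it describes that observation again and does not support it. Hcn4 was 27.9%, 17.7% and 22.7% of the summed FPKM of Hcn2 and Hcn4 in Wtap-flox and 45.5%, 51.4% and 42.2% in Wtap-CKO. Each Wtap-CKO heart lay above each Wtap-flox heart, and the means were 22.8 ± 5.10% and 46.4 ± 4.63% (n = 3, SD; two-sided p = 0.1 by exact permutation, the smallest that 3 against 3 allows; adjusted over 3 shares and ratios p = 0.3), which passes no threshold. With 1 heart left out in turn, the difference lay between 21.1 and 26.2 percentage points. The sum of both genes was also added after the values were seen, so it describes them again. It came to 10.1 ± 1.02 FPKM in Wtap-flox, against 8.10 ± 0.877 FPKM in Wtap-CKO (n = 3, SD; two-sided p = 0.1 by exact permutation, again the smallest possible). Hcn3, a further channel of the family and also named after its values were seen, stood between 0.0815 and 0.180 FPKM in Wtap-flox and between 0.239 and 0.312 FPKM in Wtap-CKO, on 6 to 20 reads per library. Without the filter its log2 fold change was 0.17 (adjusted p = 0.315, limma).

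**Figure D2:**
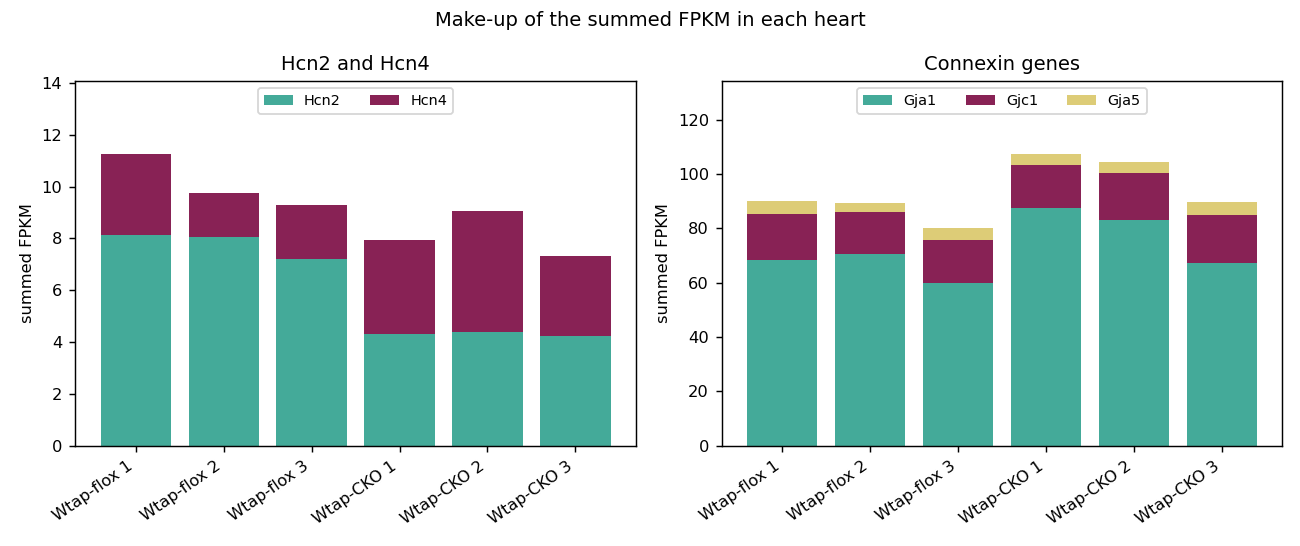
Summed FPKM (vertical axes) of Hcn2 and Hcn4 (left) and of 3 connexin genes (right) in each of the 6 hearts, with colours for the genes. Hcn4 takes 17.7% to 27.9% of the left-hand sum in Wtap-flox and 42.2% to 51.4% in Wtap-CKO, and Gja1 takes 74.8% to 81.6% of the connexin sum over all 6 hearts.

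Of 7 other pacemaker channel genes and partners, 3 were tested and 0 changed by limma (median 0.09), against 16.6% of all tested genes. For these 3 genes the count was also 0 at an unadjusted p under 0.05 and by limma-voom. Kcne2, an untested gene of the list also named after its values were seen, lay the other way from Hcn3. It had 0.483 FPKM in Wtap-flox and 0.127 FPKM in Wtap-CKO, on 2 to 20 reads per library, with overlapping groups. Without the filter its log2 fold change was -0.38 (adjusted p = 0.227, limma). Flna, an actin-binding protein and the member of the list with the highest level, stood at 71.5 ± 14.4 FPKM in Wtap-flox and 88.6 ± 17.1 FPKM in Wtap-CKO (0.31 on the log2 scale, adjusted p = 0.339, limma). Markers of the sinoatrial node and conduction cells, led by Tbx18, summed to between 11.9 and 16.4 FPKM in Wtap-flox and between 11.9 and 17.3 FPKM in Wtap-CKO. Of these 8 markers 3 were tested, 0 rose and 1 fell, against 9.91% and 6.69% of all tested genes. The gene that fell was Smoc2, at -0.59, from 5.67 to 3.41 FPKM (adjusted p = 0.0189, limma). The sum hides members that lay in opposite directions: Tbx18 had 3.80 FPKM in Wtap-flox and 7.94 FPKM in Wtap-CKO (0.85, adjusted p = 0.0618, limma), and the other 7 markers summed to between 8.85 and 12.2 FPKM against 6.85 and 7.24 FPKM. Tbx3, a factor of the nodes, had 2.59 FPKM in Wtap-flox and 2.48 FPKM in Wtap-CKO (adjusted p = 0.853, limma). Shox2, at 0.317 and 0.370 FPKM, and Isl1, at 0.0240 and 0.0318 FPKM, were low in both groups. Cntn2 had 1.06 FPKM in Wtap-flox and 0.499 FPKM in Wtap-CKO, Cpne5 had 0.342 and 0.182 FPKM, and Vsnl1 had 0.214 and 0.0801 FPKM. None of them passed in the fit without the filter (adjusted p of 0.168, 0.423 and 0.550, limma). Of the 7 markers other than Tbx18, Smoc2 had the highest level. The part of node and conduction cells in the values of Hcn4, Tbx18 and Smoc2 was not tested. In whole hearts, fewer cells of a type and less RNA per cell cannot be told apart.

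Gja1 (ENSMUSG00000050953, chromosome 10, 56377330 to 56402513, plus strand) was the most abundant of the 7 genes. It stood at 68.4, 70.5 and 60.0 FPKM in Wtap-flox and 87.6, 83.2 and 67.2 FPKM in Wtap-CKO. Wtap-CKO 1 and 2 lay above the Wtap-flox hearts, and Wtap-CKO 3 lay among them. The mean was 66.3 ± 5.55 FPKM against 79.3 ± 10.7 FPKM (SD, n = 3). The log2 fold change was 0.25 (SE 0.15, 95% interval -0.09 to 0.59, adjusted p = 0.3, limma), so a rise by more than 0.59 or a fall by more than 0.09 on that scale lay outside the interval. With quantile normalization the value was 0.03 and with TPM scaling, which shifts the median of all genes by -0.14, it was 0.08.

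Gja5 (ENSMUSG00000057123, chromosome 3, 96904693 to 97077416, plus strand) stood at 4.86, 3.67 and 4.67 FPKM in Wtap-flox and 4.05, 3.79 and 5.04 FPKM in Wtap-CKO. The groups overlapped throughout their range, with means of 4.40 ± 0.640 and 4.29 ± 0.663 FPKM (SD, n = 3). Its log2 fold change was -0.03 (95% interval -0.35 to 0.29, limma adjusted p of 0.912), and leaving out any of 4 hearts reversed its sign. The span of Gja5 overlaps Gpr89, on the other strand, at 2.65 to 4.27 FPKM, and whether reads were counted by strand is not stated.

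Gjc1 (ENSMUSG00000034520, chromosome 11, 102799579 to 102819700, minus strand) varied least among the connexins. It stood at 16.8, 15.3 and 15.5 FPKM in Wtap-flox and 15.8, 17.3 and 17.5 FPKM in Wtap-CKO, so the lowest Wtap-CKO heart lay within the range of Wtap-flox. The log2 fold change was 0.08 (95% interval -0.17 to 0.33, adjusted p = 0.657, limma), and it turned to -0.01 with quantile normalization and -0.08 with TPM scaling.

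The balance of the 3 connexins overlapped between the groups, in tests that could not reach 0.05 with 3 against 3. Gja1 made up 75.9%, 78.8% and 74.8% of their sum in Wtap-flox and 81.6%, 79.8% and 74.9% in Wtap-CKO (exact permutation test, two-sided p = 0.4, adjusted p = 0.4). The difference in its share was 2.21 percentage points, and 0.798 to 4.14 with 1 heart left out. Gja5 per Gja1, a measure of connexin 40 against connexin 43, came to 0.0669 ± 0.0134 in Wtap-flox, against 0.0556 ± 0.0168 in Wtap-CKO (n = 3, SD; two-sided p = 0.3 by exact permutation, adjusted p = 0.4). Wtap-CKO 3 had a Gja5 to Gja1 ratio of 0.0750, within the range of Wtap-flox, while Wtap-CKO 1 and 2 had 0.0463 and 0.0455.

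**Figure D3:**
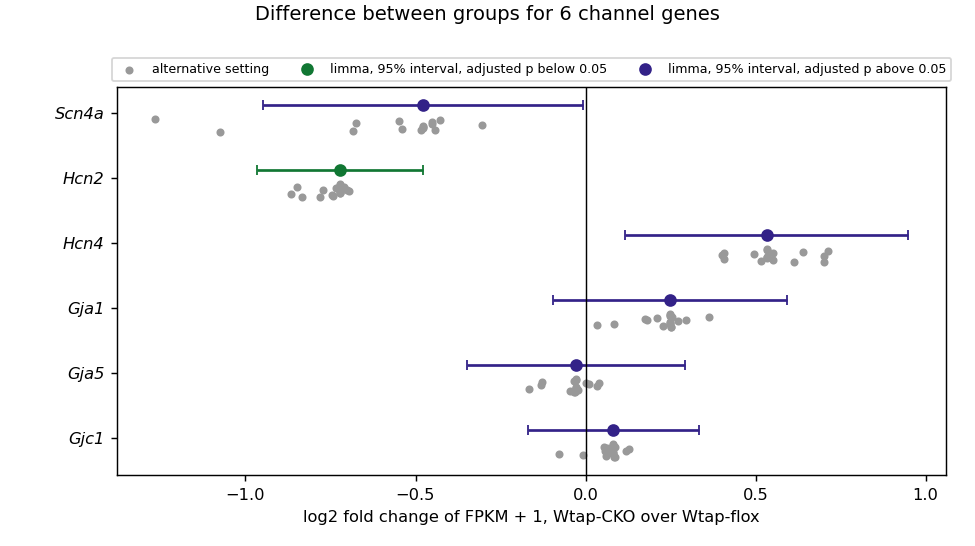
Log2 fold change of FPKM + 1, Wtap-CKO over Wtap-flox (horizontal axis), for 6 of the 7 genes, with 95% intervals from limma and grey points for the alternative settings. Hcn2 lies at -0.72 and is below 0 in each setting, Hcn4 lies at 0.53 and is above 0 in each setting, and Gja5 and Gjc1 have points on both sides of 0. Scn4a is shown from the fit without a filter.

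Among 19 other connexins and pannexins 4 were tested, 1 rose and 0 fell (median 0.41), and Gjb1, Gjd2 and Gje1 were at 0 in all 6 libraries. At the same threshold 9.91% of all tested genes were higher and 6.69% lower. Gja4, the connexin 37 of arterial endothelium, rose by 0.55 on the log2 scale, 13.2 ± 0.854 against 19.9 ± 3.16 FPKM (adjusted p = 0.0283, limma). It missed the threshold without any 1 of the 3 Wtap-flox hearts or without Wtap-CKO 1, with TPM scaling and with no filter, at an adjusted p of up to 0.107. Gjd3, named after its values were seen, stood at 1.30, 2.56 and 3.98 FPKM in Wtap-flox and 5.55, 4.41 and 6.71 FPKM in Wtap-CKO (0.91, adjusted p = 0.0662). Arterial endothelial markers, a list of 7 led by Nrp1 that includes Gja4, summed to between 62.1 and 67.5 FPKM in Wtap-flox and between 70.4 and 79.6 FPKM in Wtap-CKO. The 7 markers of endothelium at large, led by Cdh5, summed to between 251 and 280 against 240 and 256 FPKM. All 7 of the latter were tested, and 1 rose and 1 fell, which their sum hides. Without Gja4 the other 6 arterial markers summed to between 48.1 and 54.1 FPKM in Wtap-flox and between 50.5 and 57.1 FPKM in Wtap-CKO, so the groups overlapped. The part of these cells in the value of Gja4 was not tested.

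Of 10 gap junction partners, all tested, 0 rose and 1 fell (median -0.21), against 9.91% and 6.69% of all tested genes. Nov (also Ccn3), a matricellular protein that binds connexin 43, fell by 1.30 on the log2 scale, from 16.9 ± 1.45 to 6.30 ± 1.37 FPKM (adjusted p = 0.00131, limma). The scaffold Tjp1 (-0.40, adjusted p = 0.181) and the desmosomal Dsp (-0.07, adjusted p = 0.842) did not pass.

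Of 19 transcription factors of the conduction system and chambers 16 were tested, and 1 rose and 3 fell (median -0.07). The shares over all tested genes were 9.91% higher and 6.69% lower. Irx5, a factor of the ventricular wall, rose 1.59-fold from a mean of 8.21 ± 0.929 FPKM (0.61, adjusted p = 0.0135, limma), and missed the threshold without Wtap-flox 1 or Wtap-flox 2 (adjusted p of up to 0.0534). Hey2, a Notch target of compact ventricular muscle, fell by 1.13, from 9.42 ± 0.781 to 3.78 ± 0.374 FPKM (adjusted p = 0.000906). Hopx fell by 0.85 (adjusted p = 0.0121, limma), and an antisense gene, Hopxos, overlaps it. Etv1, a factor of the fast conduction system, fell by 0.66, from 2.07 ± 0.182 to 0.946 ± 0.0670 FPKM, a ratio of 0.457 (adjusted p = 0.00824, limma). Over the 6 lists, with each gene counted once, 44 of 77 genes were tested and 20.5% changed, 3 higher and 6 lower, against 16.6% of all tested genes. The values of 11 lay wholly above and of 11 wholly below those of Wtap-flox, while 37.1% of all tested genes did not overlap.

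**Figure D4:**
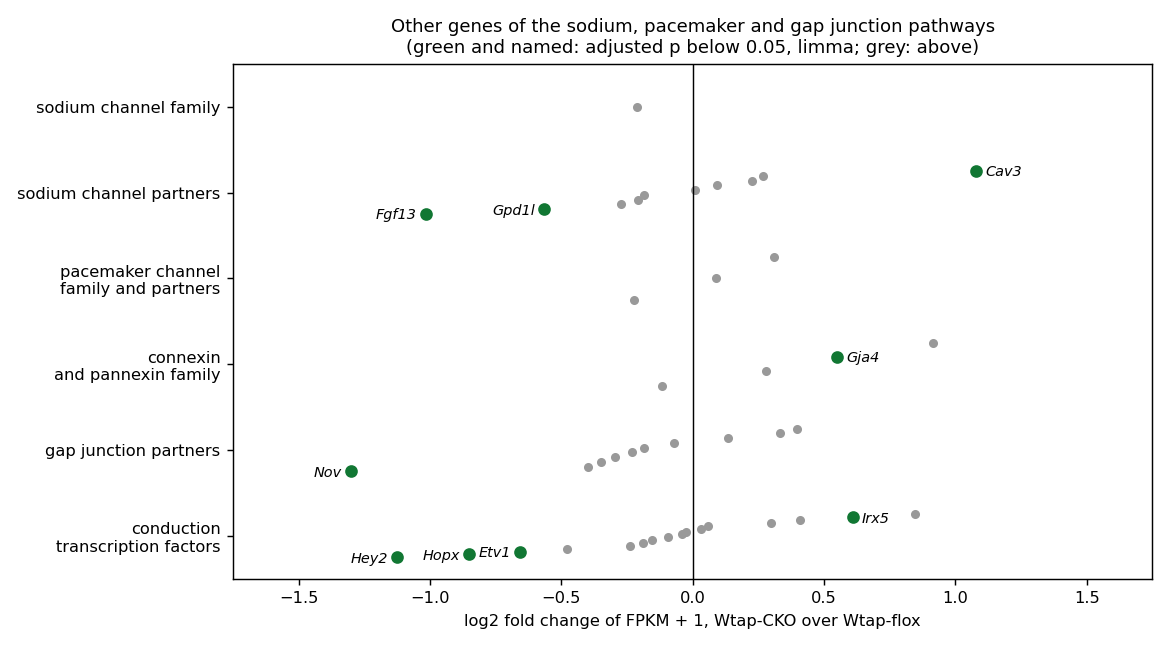
Log2 fold change of FPKM + 1, Wtap-CKO over Wtap-flox (horizontal axis), of the tested genes in 6 lists around the 3 channel families (rows), with green named points for an adjusted p below 0.05. Cav3, Irx5 and Gja4 lie above 0, and Nov, Hey2, Fgf13, Hopx, Etv1 and Gpd1l below.

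Atrial genes differed among themselves between the groups, beside which the values of Hcn4 and Gja5, both atrial and conduction genes, may be set. Of 6 atrial markers 5 were tested, and 2 rose and 0 fell, against 9.91% and 6.69% of all tested genes. Nppa, also a gene of ventricular stress, rose to 1051 FPKM from 77.4 (adjusted p = 0.00764, limma). Myl4, the atrial essential light chain, rose to 46.5 FPKM from 17.1 (adjusted p = 0.0194, limma). Myl7, the atrial regulatory light chain, had 28.2 against 101 FPKM (-1.78, adjusted p = 0.0720), Sln had 1.37 against 4.35 FPKM and Bmp10 had 0.0932 against 0.863 FPKM. Of these Myl7 and Sln did not pass, and Bmp10, below the mean of 1 FPKM, did not pass without that filter (adjusted p = 0.0653, limma). Dkk3 had 21.7 against 15.6 FPKM (0.47, adjusted p = 0.0807, limma). The groups did not overlap for Nppa, Myl4 and Dkk3, higher in Wtap-CKO, nor for Myl7 and Bmp10, lower there. Over all tested genes 19.8% were higher and 17.3% lower without overlap. The list summed to between 185 and 250 FPKM in Wtap-flox and between 624 and 1722 FPKM in Wtap-CKO, and Nppa set this direction. Without Nppa the other 5 markers summed to between 81.4 and 202 FPKM in Wtap-flox and between 68.8 and 116 FPKM in Wtap-CKO, with overlapping groups and the lower mean in Wtap-CKO. How much atrial tissue each sample held is not stated, and its part in the values of Hcn4 and Gja5 was not tested.

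Genes that followed each member most closely over the 6 libraries were sought among 10919 protein-coding genes, by Pearson's r of log2(FPKM + 1). The 6 points of each correlation include the difference between the groups, so r is given as a description. Hcn2 was followed by Slc2a4, the insulin-responsive glucose transporter (r = 0.9995), which stood at 47.5, 46.7 and 43.0 FPKM in Wtap-flox and 29.1, 28.8 and 28.2 FPKM in Wtap-CKO, and by Coq8a of coenzyme Q synthesis (r = 0.998). Hcn4 was followed by Msl1 (r = 0.995) and Hif3a (r = 0.983), and Gja1 by Abhd5 (r = 0.986). For Scn4a they were Mlst8 (r = 0.999) and Stard8 (r = 0.991), for Gja5 Cpt1c (r = 0.978) and Surf2 (r = 0.974), and for Gjc1 Plekhf1 (r = 0.978) and Tnrc6a (r = 0.968). For Scn4b, whose values rest on 21 reads, they were Lrch1 (r = 0.990) and Ern1 (r = 0.987).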

How the data were processed

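Heart RNA of 3 Wtap-flox and 3 Wtap-CKO mice is covered by the FPKM table that the authors deposited, with 54532 genes (22046 protein coding). Per the submitters' processing notes, CASAVA, HISAT2 2.0.5, featureCounts 1.5.0-p3 and DESeq2 1.20.0 were used, on a build named GRCm39. Of 20837 protein-coding genes, 94.8% started or ended no more than 1000 bases from the GRCm38.p6 annotation and 3.37% of 19362 within that distance in GRCm39, so coordinates are given as GRCm38. FPKM times length was a whole multiple of a step per library for 100.0% of values above 0 (tolerance 0.01 of a step), so reads could be recovered. The implied library sizes followed median-ratio size factors, a scaling that itself sets the typical difference between libraries near 0.

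From these values, log2(FPKM + 1) of genes averaging 1 FPKM or more was fitted with limma 3.58.1 in R 4.3.3 (trend and robust options). Two-sided p-values were adjusted by Benjamini-Hochberg over all tested genes, with a threshold of 0.05. Scn4a and other named genes below that mean were fitted without the filter, and for Scn4b no fold change is given. Shares and ratios were compared by exact permutation tests over hearts. The procedure was checked on simulated data. Python 3.11.15 was used with scipy 1.17.1, pandas 2.3.3, numpy 2.4.6 and, for plots, matplotlib 3.10.9.

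The members and lists were chosen with earlier results of these data known. The limma p-values weigh the difference between groups against the spread between hearts, moderated over all genes. The permutation p-values rank that difference among relabellings of the hearts. Some listed genes, 1 marker list and shares that need those genes are not reported here. The share of Hcn4 in Hcn2 and Hcn4, the sum of both, and the marker sums without Nppa, Tbx18 or Gja4 were chosen after the data were seen. The rule for names took the members, Wtap, each called gene of a list, the highest gene of each family list, the 2 protein-coding genes most alike to each member (mean of at least 1 FPKM, no predicted genes), and the highest and absent genes of each marker list. The alternatives changed the pseudocount (0.1 or 0.5), the filter (none, or a mean of 0.1 or 5 FPKM) or the scaling: upper-quartile, quantile and TPM. Others were limma without trend or robust moderation, a replicate block, limma-voom on recovered reads, and each heart left out in turn. Shares were also taken from reads without length scaling. Markers of fibroblasts (led by Col3a1), smooth muscle (Acta2), epicardium (Wt1) and leukocytes (Lyz2) were also summed.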

Additional observations from a re-analysis of the deposited data

How the results depend on the processing

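Hcn2 fell in all 18 alternatives (-0.86 to -0.69), and no member fell in addition to it. Hcn4 was above 0 in its 17 alternatives and passed by limma-voom (0.71), which made 1 member higher, and without Wtap-flox 1; it ranged from 0.40 to 0.70 with 1 heart left out, which gave 0 to 1 members higher. Gja5 ranged from -0.130 to 0.0407 with 1 heart left out (0.0346 without Wtap-flox 1, 0.00996 without Wtap-flox 3, 0.00169 without Wtap-CKO 1), and Gjc1 turned to -0.00843 with quantile normalization and -0.0767 with TPM scaling. Scn4a ranged from -1.27 (limma-voom) to -0.30 and missed the threshold in its 15 alternatives. The cause was not tested. Of the listed pathway genes 6 rose by limma-voom, 1 without Wtap-flox 1 or Wtap-flox 2, and 1 to 4 with any 1 heart left out, while 5 to 8 fell over the alternatives.

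Over all genes, TPM scaling gave 799 higher and 1600 lower (33.3% higher against 59.7% as deposited), no filter 723 and 483, and a mean of at least 5 FPKM 471 lower. With 1 heart left out 709 to 1194 were higher and 428 to 818 lower, with fewer samples in each fit. The replicate block was run although nothing pairs the hearts: deviations of same-numbered hearts correlated at -0.22, -0.08 and -0.08. With it 1048 genes were higher and 625 lower, Hcn2 kept its call (adjusted p = 0.00817) and no member's call changed. Differences in the 3 shares and ratios kept their sign in the 7 alternatives each. Hcn4 and Gja5 have no value with a mean of at least 5 FPKM. Depth limits Scn4b, at 2 to 6 reads per library.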

Other observations

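Markers of other cells of the heart, summed per list, gave the following ranges. Fibroblast markers, led by Col3a1, summed to between 705 and 802 FPKM in Wtap-flox and between 530 and 741 FPKM in Wtap-CKO. Smooth muscle and pericyte markers, led by Acta2, summed to between 558 and 796 against 751 and 978 FPKM. Epicardial markers, led by Wt1, summed to between 4.12 and 5.38 against 8.23 and 9.65 FPKM, and Krt19 accounted for 1.36 and 4.90 FPKM of the group means. Leukocyte markers, led by Lyz2, summed to between 23.2 and 27.9 against 35.8 and 74.5 FPKM, with Wtap-CKO 3 the highest. Of the tested markers 2 of 8 fibroblast genes fell. In smooth muscle 1 of 7 rose, in epicardium 1 of 2 rose, and 0 of 4 leukocyte genes changed. Over all tested genes 9.91% were higher and 6.69% lower. The part of these cells in the values of the channel genes was not tested.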
